A study of Chlorocebus sabaeus with 6 samples.

Results

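The insulin-like growth factor (IGF) system was examined in wild-type COS7 cells (WT, 3 samples) and in COS7 cells knocked out for both ATL2 and ATL3 (DKO, 3 samples). The 10 genes were the rows of the deposited expression table with the symbols IGF1, IGF2, IGF1R, IGF2R, IGFBP2, IGFBP3, IGFBP4, IGFBP5, IGFBP6 and IGFBP7, out of 18050 genes in the table. COS7 is an SV40-transformed line from African green monkey kidney, and the atlastins ATL2 and ATL3 are GTPases that fuse membranes of the endoplasmic reticulum. Both groups were grown in the same serum-containing medium. The sources used here do not name the knockout clone or clones, and do not say whether samples of a group were separate cultures. The p-values therefore cover only sample-to-sample spread, and that spread may be technical.

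IGF1 and IGF2 are secreted ligands that signal through IGF1R, a receptor tyrosine kinase, and through the related insulin receptor INSR. IGF2R, the cation-independent mannose 6-phosphate receptor, carries lysosomal enzymes and clears IGF2 without signalling through a kinase. The IGF binding proteins are secreted carriers that hold the ligands outside the cell and release them when cleaved by proteases. Several of them also bind matrix or cell-surface proteins.

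Levels are given in FPKM, which the authors scaled to transcript length and library depth, so that genes can be compared with each other. Differences are log2 fold changes, DKO over WT, from edgeR's quasi-likelihood test on the deposited estimated counts, and a gene is called where the p-value, adjusted over 13094 tested genes, is below 0.05. Libraries held 14197344 to 15693049 estimated counts. The mRNAs of the targeted genes were lower in DKO, ATL2 at 5.94 ± 1.90 against 30.6 ± 1.5 FPKM and ATL3 at 4.88 ± 1.25 against 35.8 ± 1.36 (SD, n = 3 each). DKO replicate 3 stood apart from the other DKO samples: its median difference from them was 0.447 and 0.458 on the log2 scale, against 0.0737 to 0.113 for the other pairs within a group.

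Of the 10 genes, 9 had enough counts to be tested, and 7 of these differed between the genotypes. IGF2, IGF1R, IGF2R, IGFBP2 and IGFBP5 were higher in DKO, and IGFBP3 and IGFBP4 were lower. IGFBP6 and IGFBP7 were not called. The background is high, since 45.5% of the tested genes were called, with 23.3% higher in DKO and 22.2% lower. In bulk RNA, fewer cells that express a gene and less of its RNA per cell cannot be told apart. The samples of the genotypes did not overlap in FPKM for the same 7 genes, as for 63.2% of all tested genes. The median log2 fold change was 0.76 over the 9 genes and -0.01 over all tested genes, and the median size of the change was 0.94 against 0.47. IGF2 and IGFBP4 passed the filter on low counts through the genotype in which they were high, so these counts and medians describe the genes and support nothing further. Without DKO replicate 3, when 74.6% of all genes were called, the same 7 genes were called in the same direction and IGFBP6 was added. Taken gene by gene, the exact permutation test (two-sided) gave p = 0.1 for all 7, which is the lowest value possible for 3 against 3.

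**Figure D1:**
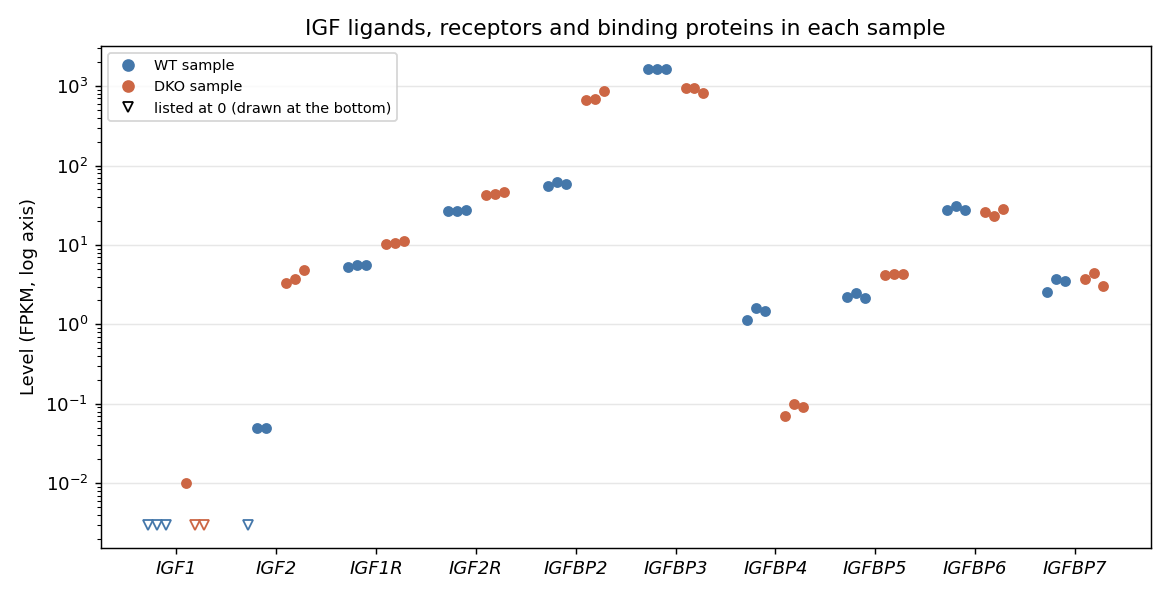
Level of each gene in each of the 6 samples, in FPKM on a log axis, with WT and DKO samples in replicate order. IGFBP3 stands highest in every WT sample, IGFBP2 rises from between 54.95 and 62.8 FPKM in WT to between 670 and 859 in DKO, and IGF2 is at 0.05 FPKM or listed at 0 in WT.

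Of the ligands, IGF2 was detected mainly in DKO. WT replicates 1 to 3 had 0, 0.05 and 0.05 FPKM, DKO replicates 1 to 3 had 3.31, 3.74 and 4.81, and the groups did not overlap. The WT libraries together held 2 counts of IGF2 and the DKO libraries 59, 66 and 99, a ratio of 117 with an exact 95% interval from 32.1 to 973 that covers counting error only. The fit gave 6.62 as the log2 fold change (SE 0.48, edgeR adjusted p = 6.6e-05), a value that depends on the prior count at so few WT counts, against 2.25 by limma on log2(FPKM + 1), a scale that shrinks the change of a gene this low. IGF1 was at the limit of detection, with a single count in DKO replicate 1 and none in the other 5 libraries. It fell under the filter, and no difference was detectable at this depth (exact two-sided permutation p = 1). Even in DKO, IGF2 stood at rank 9137 of 18050 genes, against rank 15283 in WT.

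Both receptors rose, each by less than 2-fold. IGF1R was at 5.31, 5.62 and 5.67 FPKM in WT and at 10.3, 10.7 and 11.1 in DKO. All DKO samples lay above all WT samples, a difference of 0.94 in log2 (SE 0.10, edgeR adjusted p = 0.000415). IGF2R was at 26.8, 26.7 and 27.7 FPKM in WT and at 43.0, 44.2 and 47.0 in DKO, again without overlap (log2 fold change 0.76, SE 0.09, edgeR adjusted p = 0.000579). In every sample IGF2R mRNA was more abundant than IGF1R mRNA, at 4.89 ± 0.143 times its FPKM in WT and 4.19 ± 0.0368 times in DKO (SD, n = 3 each). The highest DKO ratio, 4.22, lay below the lowest WT ratio, 4.76.

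INSR, the insulin receptor gene, was lower in DKO, a call that rested on having every sample but DKO replicate 3. It was at 4.93, 5.25 and 4.91 FPKM in WT and at 3.02, 3.19 and 4.07 in DKO, with DKO replicate 3 nearest to WT. The log2 difference was -0.51 (SE 0.16, edgeR adjusted p = 0.0343), and the call was lost when WT replicate 1, 2 or 3 or DKO replicate 1 or 2 was left out, with log2 fold changes of -0.69 to -0.42 over all fits that leave out 1 sample. IGF1R mRNA was about as abundant as INSR mRNA in WT, at 1.10 ± 0.0469 times its FPKM, and 3.16 ± 0.369 times as abundant in DKO (SD, n = 3 each). Each DKO ratio, from 2.73 to 3.40, exceeded each WT ratio, from 1.07 to 1.16.

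Among the binding proteins, the main difference was between IGFBP2 and IGFBP3. IGFBP2 was at 54.95, 62.8 and 57.7 FPKM in WT and at 670, 689 and 859 in DKO. Its difference of 3.72 in log2 (SE 0.17, edgeR adjusted p = 9.35e-06) corresponds to a 13.2-fold higher level, and 5.0% of all tested genes had a change at least as large in either direction. DKO replicate 3 was the highest sample, and without it the log2 fold change was 3.54. IGFBP2 moved from rank 1729 to rank 135 of the 18050 genes by mean FPKM.

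IGFBP3, the main carrier of IGFs in blood plasma, was the most abundant of the 10 mRNAs in WT. It was at 1645, 1652 and 1642 FPKM in WT and at 941, 948 and 825 in DKO, where DKO replicate 3 was the lowest. In log2 it differed by -0.82 (SE 0.10, edgeR adjusted p = 0.000548), so that the DKO level was 0.566 times that of WT. IGFBP3 remained among the most abundant mRNAs, at rank 46 in WT and rank 111 in DKO.

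The summed FPKM of the 6 binding proteins differed by a few percent, without overlap between the genotypes, while its makeup differed widely. The sum was 1733, 1754 and 1734 FPKM in WT and 1645, 1669 and 1720 in DKO. IGFBP3 made up 94.6 ± 0.363% of it in WT and 54.0 ± 5.22% in DKO, and IGFBP2 3.36 ± 0.207% and 44.0 ± 5.17% (SD, n = 3 each). The ratio of IGFBP3 to IGFBP2 was 29.9, 26.3 and 28.4 across WT, against 1.40, 1.38 and 0.960 across DKO. Only in DKO replicate 3 was IGFBP2 above IGFBP3.

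**Figure D2:**
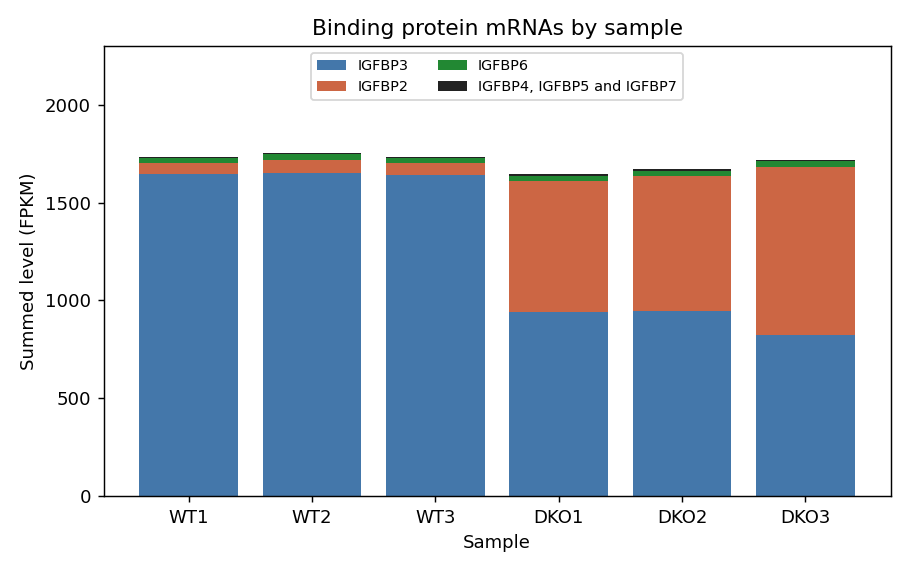
Summed FPKM of the 6 binding protein mRNAs in each sample, with the share of each gene stacked. The height of the bars is 1733 to 1754 FPKM in WT and 1645 to 1720 in DKO, while the IGFBP2 part grows from 3.36% to 44.0% on average.

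IGFBP5, a carrier that also binds matrix, rose, and IGFBP4, which is known as an inhibitor of IGF action, fell. IGFBP5 was at 2.20, 2.52 and 2.16 FPKM in WT and at 4.13, 4.37 and 4.34 in DKO (log2 fold change 0.94, SE 0.12, edgeR adjusted p = 0.000942). IGFBP4 was low in both genotypes, at 1.15, 1.60 and 1.46 FPKM in WT and at 0.07, 0.10 and 0.09 in DKO. Its counts summed to 132 in WT and 8 in DKO, a level 15.8 times lower with an exact 95% counting interval from 7.78 to 37.3. The fit gave -3.92 in log2 (SE 0.29, edgeR adjusted p = 7.52e-05), and -1.14 by limma on log2(FPKM + 1). Neither gene overlapped between the genotypes.

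IGFBP6, a carrier that prefers IGF2 over IGF1, was not called. It was at 27.3, 31.0 and 27.4 FPKM in WT and at 26.3, 23.4 and 28.7 in DKO, and the groups overlapped (log2 fold change -0.07, SE 0.16, edgeR adjusted p = 0.757). The overlap came from DKO replicate 3. Without that sample IGFBP6 was called lower, at a log2 fold change of -0.21 (edgeR adjusted p = 0.0279). Without DKO replicate 2 the value was 0.03. IGFBP7, a related secreted protein with low affinity for IGFs, was at 2.57, 3.73 and 3.48 FPKM in WT and at 3.69, 4.4 and 3.03 in DKO, with overlapping groups (log2 fold change 0.23, SE 0.20, edgeR adjusted p = 0.388).

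**Figure D3:**
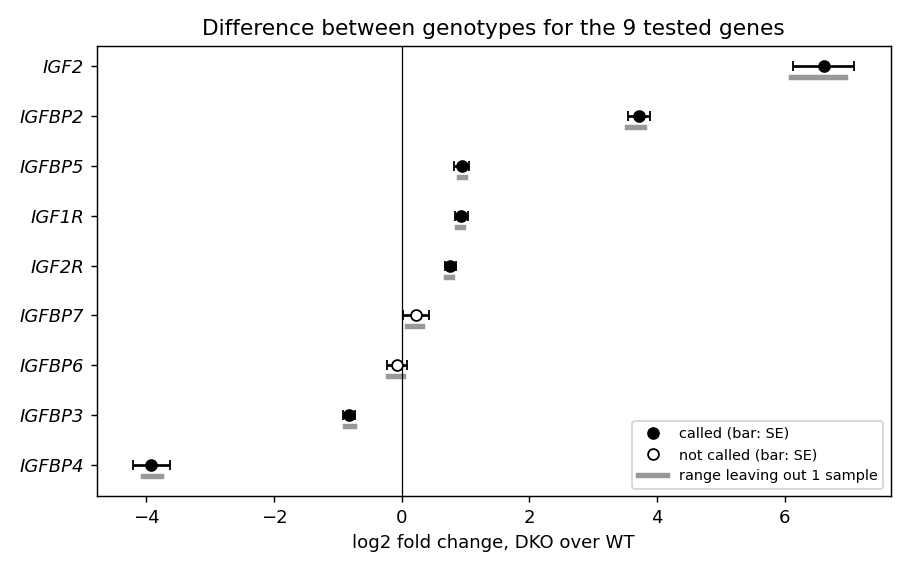
Log2 fold change, DKO over WT, of the 9 tested genes with its standard error, and under each point the range over the 6 fits that leave out 1 sample. The 7 called genes keep their side of 0 in every such fit, and the range of IGFBP6 spans 0, from -0.21 to 0.03.

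The order of the levels differed between the genotypes. In WT it ran from IGFBP3 through IGFBP2 to IGFBP6 and IGF2R, whose sample values overlapped, and then through IGF1R, IGFBP7, IGFBP5 and IGFBP4 to IGF2 and IGF1. In DKO the values of IGFBP3 and IGFBP2 overlapped at the top, followed by IGF2R, IGFBP6 and IGF1R. IGFBP5, IGF2 and IGFBP7 then overlapped with each other, and IGFBP4 and IGF1 were lowest. Against the other DKO samples, DKO replicate 3 was 0.58 higher for IGF2 and 0.48 higher for IGFBP2 on the log2 scale, 0.39 higher for IGFBP6 and 0.27 lower for IGFBP3. The median size of this deviation over all tested genes was 0.45.

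Genes with the most similar levels over the 6 samples were found by the Euclidean distance of log2(FPKM + 1), as a description. For IGF1R they were C11H12orf43 (distance 0.197) and SNAI2 (0.245), and for IGF2R they were CHMP7 (0.186) and TBL2 (0.212). IGFBP2 and IGFBP3 had no such close match. The nearest to IGFBP2 were TMEM123 (1.47) and DCUN1D5 (1.61), and the nearest to IGFBP3 were TUBB (0.749) and LOC103224743 (0.933).

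Some of the genes have paralogs or related genes beside them in the genome. Gene order was taken from the RefSeq annotation of mChlSab1.0.hap1, in which all 10 genes were matched by gene ID. IGFBP5, the next measured gene after IGFBP2, rose as IGFBP2 did. IGFBP1, the binding protein gene adjacent to IGFBP3, fell as IGFBP3 did. The WT libraries held 14, 16 and 15 counts of IGFBP1 and the DKO libraries 0, 0 and 1. The DKO level was 43.0 times lower, with an exact 95% counting interval from 7.34 to 1736 (edgeR adjusted p = 0.00055). IGFBP1 passed the filter on low counts only through WT, where it was high, so its call supports nothing further. Before IGFBP2, the nearest measured gene LOC103217821 had 1 count in WT and 15 in DKO and was not tested. RPL37A, the measured gene before that, was not called (log2 fold change 0.35, SE 0.18). For both, each DKO sample lay above each WT sample in FPKM. TNS1, the next measured gene after IGFBP5, was not called (-0.29, SE 0.15). TNS3, the nearest measured gene before IGFBP3, fell (-0.79, SE 0.13, edgeR adjusted p = 0.00249). ADCY1, the next measured gene after IGFBP1, rose (0.84, SE 0.16, edgeR adjusted p = 0.0052), so the genes around IGFBP3 went both ways.

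The noncoding RNA gene H19, the measured neighbour of IGF2 and its imprinted partner in mammals, was low in all samples. Its counts were 7, 16 and 16 for WT but 0, 1 and 2 for DKO, a level 12.4 times lower with an exact 95% counting interval from 3.95 to 62.9, and with all 6 samples it fell under the filter on low counts. It passed the filter when WT replicate 1 or DKO replicate 1, 2 or 3 was left out, and only through WT, where its counts were higher. In these overlapping fits edgeR called it lower each time (log2 fold changes from -4.32 to -2.97, largest adjusted p = 0.0203). Because of that way through the filter, the calls describe its counts and support nothing further. IGF2 counts were thus higher, and H19 counts lower, in each DKO sample than in each WT sample. Beyond H19, the mitochondrial ribosomal protein gene MRPL23 rose (0.68, SE 0.20, edgeR adjusted p = 0.0271). It was at 159, 150 and 203 FPKM in DKO, highest in DKO replicate 3. Its call was not followed over the fits that leave out 1 sample. TH, the nearest measured gene on the other side, was at or near 0 FPKM throughout. The files do not state whether counting used strand, so reads from antisense transcripts at these loci cannot be told apart from those of the genes.

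Outside the 10 genes, 9 lists of IGF pathway genes held 80 tested genes, of which 18 were higher, 18 lower and 44 not called. The called share was close to the 45.5% of all tested genes. Without DKO replicate 3, 26 were higher and 41 lower of 82 tested. Without WT replicate 1, 2 or 3 there were 11 higher and 12 to 14 lower of 80 to 82 tested. Over all tested genes the called share was 74.6% without DKO replicate 3 and 32.1% to 33% without 1 WT sample. The counts by list below, where a sample is left out, are to be read against these shares. Of the called genes named from these lists, IGFBP1, ADAM12, IGF2BP3 and SOCS1 passed the filter on low counts only through the genotype in which they were high. Their calls, and the counts by list that hold them, describe the genes and support nothing further.

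Of 6 tested genes for other IGF-binding or related proteins, 4 were higher, 1 lower and 1 not called, with a median log2 fold change of 1.23. KAZALD1, which shares the IGF-binding domain, was at 1.38, 1.20 and 1.11 FPKM in WT and at 10.0, 10.2 and 13.3 in DKO (log2 fold change 3.18, SE 0.22, edgeR adjusted p = 5.36e-05). The matricellular protein genes CCN2 (1.77, SE 0.08) and CCN5 (2.82, SE 0.23) also rose. CCN1 was not called, at 490 ± 7.41 FPKM for WT and 535 ± 19.7 for DKO (SD, n = 3 each). Left without DKO replicate 3, the fit called CCN1 higher (0.098, edgeR adjusted p = 0.017). The gene that fell was IGFBP1. With WT replicate 1 or DKO replicate 1, 2 or 3 left out, 2 of 7 tested were lower, because CCN3 then passed the filter and was called lower (log2 fold changes from -2.51 to -2.20, largest edgeR adjusted p = 0.0337). CCN3 had 37 counts in WT and 7 in DKO and passed the filter only through WT, so its calls support nothing further.

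Genes for proteases that cleave binding proteins, and for their inhibitors, went both ways. Of 7 tested, 3 were higher, 3 lower and 1 not called, with a median of -0.19. With any 1 sample other than DKO replicate 3 left out, 3 were higher and 2 lower. CTSD, named here because its call changed, was the gene no longer called lower in those fits. STC2, an inhibitor of the IGFBP4-cleaving protease pappalysin, was at 0.81, 0.78 and 0.95 FPKM in WT and at 8.06, 7.80 and 7.36 in DKO. The gene of that protease, PAPPA, named here after its values were seen, rose from 0.42 ± 0.0265 to 1.22 ± 0.337 FPKM (SD, n = 3 each; log2 fold change 1.58, SE 0.25, edgeR adjusted p = 0.0021). PLAU, which encodes urokinase, fell (-3.60, SE 0.14, edgeR adjusted p = 6.65e-06). ADAM12, a metalloprotease gene, had 877 counts in WT and 4 in DKO, a level 210 times lower with an exact 95% counting interval from 81.6 to 771. ADAM9 was not called (-0.19, SE 0.20).

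Of 8 tested genes that bind IGF2 mRNA or act on IGF2 transcription, 3 were higher, 2 lower and 3 not called, with a median of -0.19. IGF2BP3, an RNA-binding protein named for its binding to IGF2 mRNA, was at 32.3, 30.2 and 31.7 FPKM in WT and at 0.24, 0.08 and 0.02 in DKO (log2 fold change -8.31, SE 0.45, edgeR adjusted p = 1.94e-05). IGF2BP3 was high where IGF2 counts were few, as holds for any gene that fell in DKO. A link between the 2 genes was not tested. The zinc finger gene PLAGL1 rose (1.11, SE 0.13), and E2F3 fell (-0.71, SE 0.21, edgeR adjusted p = 0.0294), a call lost without WT replicate 1, 2 or 3. CTCF, the insulator protein gene, was not called (-0.03, SE 0.14). With any 1 sample other than DKO replicate 3 left out, 1 gene of this list was higher and 1 to 3 were lower. Without DKO replicate 3 there were 3 and 5. H19 is also on this list. In the fits in which H19 passed the filter, given above, 9 genes were tested and H19 was among those called lower.

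IGF2R shares the mannose 6-phosphate sorting pathway with another receptor, adaptors and enzymes. Of 8 tested, 1 was higher, 0 lower and 7 not called, with a median of 0.07 (3 higher and 4 lower without DKO replicate 3). M6PR, the cation-dependent receptor, was at 121, 123 and 129 FPKM in WT and at 137, 138 and 128 in DKO (log2 fold change 0.15, SE 0.08, edgeR adjusted p = 0.157). The adaptor gene GGA1 was the called one (0.64, SE 0.18, edgeR adjusted p = 0.0221), and not without WT replicate 1, 2 or 3. Of 5 cell-surface partners of the binding proteins, edgeR, DESeq2 and limma-voom each called 0, and each had 0 at an unadjusted p below 0.05. Without DKO replicate 3, 2 of these were called higher and 3 lower. ITGB1, the most abundant of them, was at 285 ± 16.3 FPKM for WT and 292 ± 102 for DKO (SD, n = 3 each), where replicate 3 had 174.

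**Figure D4:**
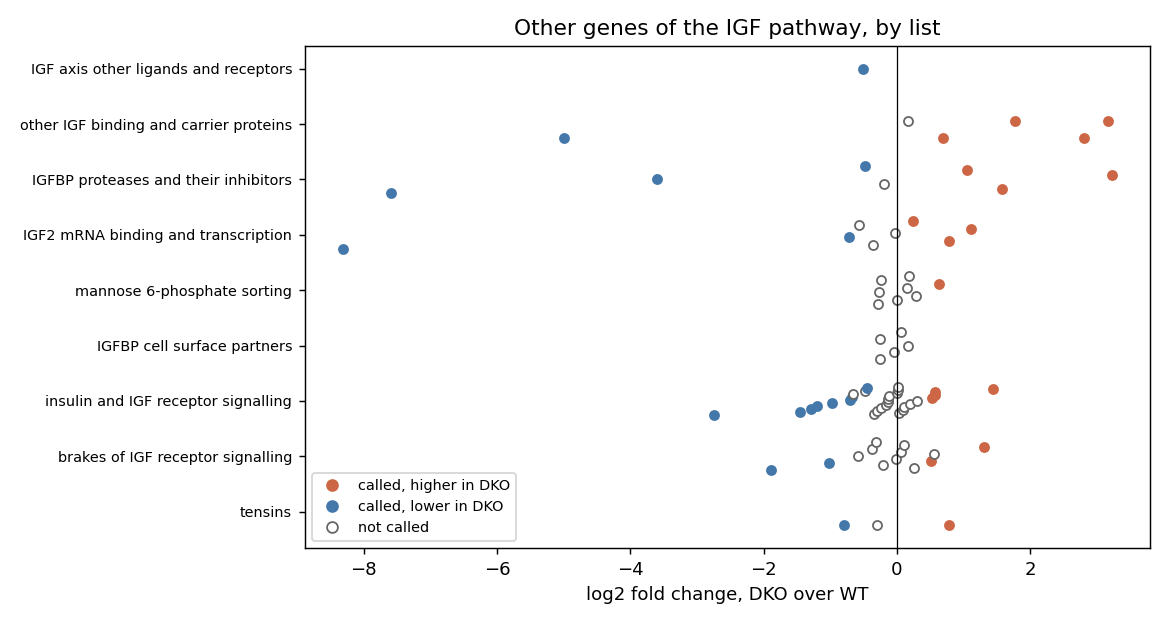
Log2 fold change, DKO over WT, of each tested gene in the 9 IGF pathway lists, with height within a list only to part the points. IGF2BP3, ADAM12, IGFBP1 and PLAU are the points furthest to the left, and STC2 and KAZALD1 those furthest to the right.

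Downstream of the receptors, 4 of 29 tested signalling genes were higher, 8 lower and 17 not called, with a median of -0.14. The adaptor genes IRS1 and IRS2, which link IGF1R and INSR to PI3 kinase, moved in opposite directions. IRS1 was at 2.80, 2.98 and 2.84 FPKM in WT and at 7.74, 7 and 8.10 in DKO (log2 fold change 1.45, SE 0.13, edgeR adjusted p = 0.000147). IRS2 was at 24.0, 24.2 and 23.8 FPKM in WT and at 4.21, 3.98 and 2.40 in DKO (-2.74, SE 0.20, edgeR adjusted p = 6.84e-05). IRS2 was the more abundant of the pair in every WT sample and IRS1 in every DKO sample. FOXO3, a transcription factor gene whose protein AKT holds out of the nucleus, fell (-0.96, SE 0.12). RHEB was not called (0.10, SE 0.21), but it was called higher without DKO replicate 3 (0.307, edgeR adjusted p = 1.79e-07). Without DKO replicate 3, 5 of these genes were higher and 15 lower, and without WT replicate 1, 2 or 3 there were 1 higher and 5 or 6 lower.

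Among 13 tested brakes on this signalling, 2 were higher, 2 lower and 9 not called, with a median of -0.02 (4 and 6 without DKO replicate 3, and 1 and 2 with any 1 WT sample left out). DEPTOR, an inhibitor of mTOR, was at 1.68, 1.88 and 1.63 FPKM in WT and at 0.41, 0.51 and 0.67 in DKO (log2 fold change -1.89, SE 0.22, edgeR adjusted p = 5e-04). The AKT phosphatase gene PHLPP1 fell (-1.01, SE 0.12) and SOCS1 rose (1.30, SE 0.28). PTPN2 was not called (0.56, SE 0.26), but it was called higher without DKO replicate 3 (0.815, edgeR adjusted p = 7.63e-19). Of the 3 tested tensin genes, which lie near the binding protein genes, TNS2 rose (0.78, SE 0.15), TNS3 fell as given above and TNS1 was not called. Without DKO replicate 3, TNS1 was called lower (-0.44, edgeR adjusted p = 7.22e-07), so that 2 of the 3 were lower and 1 higher.

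Markers of cell types were read beside these genes, because the cells of a bulk sample are summed and a change in their mixture cannot be told apart from a change per cell. The markers named here were chosen after their values were seen. Among 10 measured fibroblast markers 6 were tested, with 2 higher, 3 lower and 1 not called, against a called share of 45.5% over all tested genes. The summed level of the 10 was 3360 to 3451 FPKM in WT and 1525 to 1580 in DKO. FN1, the fibronectin gene, made up most of that difference, at 1838 ± 57.1 FPKM for WT and 207 ± 21.8 for DKO (SD, n = 3 each). COL1A1 (log2 fold change -2.75, SE 0.20) and S100A4 (-1.56, SE 0.19) also fell, whereas the growth factor receptor genes PDGFRA (6.10, SE 0.20) and PDGFRB (3.23, SE 0.18) rose. VIM was not called, at 1533 ± 20.3 FPKM for WT and 1318 ± 51.4 for DKO (SD, n = 3 each). COL1A2, COL3A1 and DCN were at or near 0, and THY1 was listed at 0 in all samples.

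Of 8 measured epithelial markers 7 were tested, with 2 higher, 4 lower and 1 not called, again against 45.5% called over all tested genes. The 8 summed to 709 to 802 FPKM in WT and 529 to 690 in DKO, nearly all keratin mRNA, from KRT8 and KRT18. The adhesion and junction genes CDH1 (log2 fold change -5.69, SE 0.17) and CLDN4 (-5.82, SE 0.18) fell, and the splicing factor gene ESRP1 had 196 counts in WT and 0 in DKO. KRT18 fell (-0.78, SE 0.15), KRT8 was not called (-0.10, SE 0.18), and EPCAM (1.34, SE 0.20) and KRT19 (2.31, SE 0.48) rose. The sum of 6 endothelial markers was 8.33 to 10.4 FPKM in WT and 24.8 to 29.3 in DKO, and most of that difference was the receptor gene TEK, at 0.0467 ± 0.0153 FPKM for WT and 15.1 ± 0.386 for DKO (SD, n = 3 each). VWF rose at a low level (2.49, SE 0.36), EGFL7 was not called (0.36, SE 0.23), and PECAM1 and KDR were at or near 0. Haematopoietic markers summed to 14.1 to 15.9 FPKM in WT and 13.5 to 15.0 in DKO, nearly all from CD68, which was not called. Of 5 proximal tubule markers, AQP1 was at 7.03 ± 0.442 FPKM for WT and 1.66 ± 0.301 for DKO (SD, n = 3 each), and the others were near 0 in both genotypes. CDH1, ESRP1, KRT19, VWF and TEK passed the filter on low counts only through the genotype in which they were high. The part of these marker differences in the IGF results was not tested.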

How the data were processed

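RNA-seq libraries of 6 COS7 samples were grouped by sample title. The authors deposited estimated counts per gene and FPKM values, per the file headers. In each sample 5.80% to 6.54% of these counts had a fractional part. The submitters' processing notes list the aligners HISAT and Bowtie2. Their versions, the counting tool and the build were not given in the sources used here. A further 9 columns belong to 3 samples outside both groups and were left out.

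Counts were rounded and tested with edgeR 4.0.16 (TMM, default filter with a minimum count of 10, quasi-likelihood test, Benjamini-Hochberg adjustment over all tested genes) in R 4.3.3. SE is the absolute log2 difference over the square root of F, and at few counts can be smaller than counting error. Genes and lists were chosen with earlier results of these data known. All 10 genes are named. Of each list up to 3 called genes with the smallest adjusted p and the most abundant uncalled gene are named. Also named are the 2 genes closest in level, for called genes of at least 5 FPKM. Nearest measured neighbours are given only in part, for IGF2, IGFBP2, IGFBP3 and IGFBP5. Alternatives used DESeq2 1.42.0 and limma 3.58.1. The edgeR fit was tested on simulated data. Figures were drawn with matplotlib 3.10.9. No sequence of these genes was used here.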

Additional observations from a re-analysis of the deposited data

How the results depend on the processing

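The 7 called genes kept their direction and their call in all 17 alternative fits: leaving out each sample, a replicate block, dropping the low-count filter, 3 other normalizations, DESeq2, limma-voom and 4 limma fits on FPKM, and they also passed an adjusted p below 0.01. IGFBP7 stayed uncalled in all 17 fits (log2 fold change 0.08 to 0.33). The exception was IGFBP6, called lower without DKO replicate 3 and at 0.027 without DKO replicate 2 (range -0.211 to 0.027 over the fits that leave out 1 sample). The cause was not tested. With pseudocounts of 1, 0.1 and 0.01 FPKM the log2 fold change was 2.25, 4.93 and 6.89 for IGF2 and -1.14, -3.0 and -3.87 for IGFBP4, since a larger pseudocount shrinks the change of a low gene. Over all genes, 5959 were called, 4266 to 9880 when 1 sample was left out (the most without DKO replicate 3) and 3902 at an adjusted p below 0.01.

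Replicate numbers do not pair the samples by the labels. Deviations of same-numbered samples correlated at 0.02, -0.28 and -0.29. With the replicate block 4485 genes were called, with 5 of the IGF genes higher and 2 lower. Depth limits IGF1, H19, IGF2 in WT, and IGFBP1 and IGFBP4 in DKO, where few counts were found.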
